A study of Homo sapiens with 9 samples.

Results

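Genes of the integrated stress response were followed in lines of human NCI-H460 large cell lung cancer cells with RUNX3 inactivated, with wild-type RUNX3 restored and with a RUNX3 mutant, ATF4 itself in the mutant line alone. The 10 members, ATF4, ATF3, DDIT3, TRIB3, ASNS, PHGDH, PSAT1, CTH, SESN2 and CHAC1, were chosen by name as a transcription factor of this response and genes known to be its targets. All 10 were found among the 19869 genes of the table for K94/171R cells, and 4 (ATF3, SESN2, CTH and PHGDH) among the 24331 genes of the table for the other lines, where symbols could be given to 1145 identifiers, nearly all of chromosome 1. The other 6 members, ATF4 among them, were not analysed here in those lines.

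The study asked what RUNX3, a transcription factor inactivated in H460 cells, does to gene expression when starved cells are given serum. It describes these cells as K-RAS-activated with wild-type p53 and ARF, and used them to study the defence of RUNX3 against oncogenic K-RAS. RNA was sequenced from 3 stably transfected lines. H460-vec was the control line, H460-ERT2-RUNX3 carried wild-type RUNX3 fused to ERT2, and H460-ERT2-RUNX3-K94/171R carried the fusion with lysines 94 and 171 changed to arginine, which does not bind the chromatin protein BRD2, called K94/171R below. ERT2 is a form of the hormone-binding domain of the estrogen receptor that lets a fused protein enter the nucleus when 4-hydroxytamoxifen (4-OHT) is bound. Cells of every line were deprived of serum for 24 h. The 0 h library of each line came from starved cells without 4-OHT, and the 8 h and 16 h libraries, labelled as tamoxifen-treated, from cells given 10% serum with 1 μM 4-OHT for that time. Serum and 4-OHT therefore cannot be told apart within a line, and only H460-vec shows both without a RUNX3 fusion. Whether a line was 1 clone or a pool was not given in the sources used here. There was 1 library for each line and time, 9 in all, so no difference has a replicate check and no test was run.

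In the integrated stress response, kinases that sense lack of amino acids, unfolded protein in the endoplasmic reticulum, viral RNA or lack of heme phosphorylate the initiation factor eIF2. Most translation then slows, while the ATF4 message, whose upstream reading frames hold back its translation in unstressed cells, is translated more. ATF4 protein with C/EBP partners binds composite elements in genes for amino acid synthesis, uptake and tRNA charging, and in the genes of the factors ATF3 and DDIT3. Since much of the control of ATF4 lies in translation, the level of its mRNA does not measure its protein. Several members also have other regulators, and SESN2 and ATF3 are known targets of p53.

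Promoters of the 4 members measured in all lines are shown because 3 of them moved together in H460-ERT2-RUNX3 cells, and those of ASNS and CHAC1 because they hold the ATF4 element searched for. Each window, from RefSeq on build GRCh38.p14, runs 5′ to 3′ from 250 bases before a start to 50 after it. Capitals mark matches to TGATGNAA (the core of C/EBP-ATF composite elements), TGACGTCA (the CRE palindrome), TGTGGT or TGCGGT (RUNX sites), on both strands. ATF3 has 2 windows, at chr1:212565157-212565456 and chr1:212614768-212615067, both on the plus strand. The windows of SESN2 (chr1:28259268-28259567), CTH (chr1:70411018-70411317), PHGDH (chr1:119711684-119711983) and CHAC1 (chr15:40953221-40953520) are on the plus strand, and the ASNS window (chr7:97872359-97872658) is on the minus strand.
ATF3, window 1: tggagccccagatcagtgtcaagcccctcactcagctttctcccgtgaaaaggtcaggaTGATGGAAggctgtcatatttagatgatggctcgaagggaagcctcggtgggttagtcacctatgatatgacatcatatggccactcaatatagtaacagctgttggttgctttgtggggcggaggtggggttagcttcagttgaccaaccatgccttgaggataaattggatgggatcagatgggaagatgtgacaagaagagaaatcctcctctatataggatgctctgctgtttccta
ATF3, window 2: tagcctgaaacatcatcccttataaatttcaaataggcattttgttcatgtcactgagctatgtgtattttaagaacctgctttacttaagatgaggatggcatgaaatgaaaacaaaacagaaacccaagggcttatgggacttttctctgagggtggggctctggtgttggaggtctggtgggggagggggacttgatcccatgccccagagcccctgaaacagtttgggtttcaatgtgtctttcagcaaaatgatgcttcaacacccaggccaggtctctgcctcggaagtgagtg
SESN2: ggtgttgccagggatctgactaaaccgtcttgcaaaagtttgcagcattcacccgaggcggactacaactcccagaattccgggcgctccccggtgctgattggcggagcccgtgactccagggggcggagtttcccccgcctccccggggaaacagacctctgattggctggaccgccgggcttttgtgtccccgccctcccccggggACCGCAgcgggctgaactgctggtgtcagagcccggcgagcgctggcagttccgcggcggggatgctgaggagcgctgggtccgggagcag
CTH: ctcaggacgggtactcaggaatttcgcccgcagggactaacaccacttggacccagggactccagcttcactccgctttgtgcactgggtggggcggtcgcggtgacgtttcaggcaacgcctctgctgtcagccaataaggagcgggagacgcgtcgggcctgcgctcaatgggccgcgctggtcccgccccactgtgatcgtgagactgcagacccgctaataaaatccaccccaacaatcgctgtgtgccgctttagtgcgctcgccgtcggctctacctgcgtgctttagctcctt
PHGDH: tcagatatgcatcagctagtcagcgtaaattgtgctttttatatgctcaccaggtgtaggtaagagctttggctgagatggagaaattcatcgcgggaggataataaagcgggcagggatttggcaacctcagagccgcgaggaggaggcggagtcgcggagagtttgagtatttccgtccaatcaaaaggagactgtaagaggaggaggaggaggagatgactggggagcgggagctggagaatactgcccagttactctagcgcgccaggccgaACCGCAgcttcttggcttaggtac
ASNS, window 1: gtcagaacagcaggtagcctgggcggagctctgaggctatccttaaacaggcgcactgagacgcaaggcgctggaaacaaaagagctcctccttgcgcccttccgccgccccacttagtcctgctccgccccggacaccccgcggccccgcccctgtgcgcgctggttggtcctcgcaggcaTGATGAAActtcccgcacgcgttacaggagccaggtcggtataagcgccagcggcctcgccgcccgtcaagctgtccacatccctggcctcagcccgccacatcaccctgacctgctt
CHAC1: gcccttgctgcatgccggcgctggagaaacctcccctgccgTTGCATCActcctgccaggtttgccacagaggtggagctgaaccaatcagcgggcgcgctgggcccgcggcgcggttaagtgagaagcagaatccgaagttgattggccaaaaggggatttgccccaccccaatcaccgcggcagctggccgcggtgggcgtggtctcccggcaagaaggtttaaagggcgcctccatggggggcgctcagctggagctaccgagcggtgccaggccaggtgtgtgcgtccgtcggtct

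RefSeq held 16 windows for the 10 members, and 7 of them, from 6 members, had a match. TGATGNAA was in 3 windows, as TGATGGAA from 191 bases before the first ATF3 start, as TGATGAAA from 68 bases before the first ASNS start and on the minus strand, as TTGCATCA, from 209 bases before the CHAC1 start. TGCGGT was in 4 windows, as ACCGCA on the minus strand from 41 bases before the SESN2 start and past the starts of PHGDH and PSAT1, and in a second ASNS window at 2 places. TGACGTCA and TGTGGT were in 0 of the 16. Over all 35116 promoter windows, 3.62% held TGATGNAA, 1.85% TGACGTCA, 13.1% TGTGGT and 7.29% TGCGGT. The windows of ATF4, CTH, DDIT3 and TRIB3 had no match, which says only that these letters are not in these windows. A match is not a bound site, and some windows of a gene overlap. Which starts these cells use was not measured, and the ATF3 windows may not hold the start behind its level, so matches and their absence describe the listed windows only.

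Levels are FPKM, fragments per kilobase of transcript scaled to library size, as deposited. A change is the log2 ratio of 2 libraries of a line after adding 0.05 to each FPKM, which understates changes of low genes. Since the tables were made separately, changes were taken within a table, and levels are set across tables only as a description. The H460-ERT2-RUNX3 library at 16 h stood apart. Across genes, its Pearson's r of log2 values with the other 5 libraries of its table was 0.761 to 0.861, while H460-vec at 8 h reached 0.959 with 1 of the others. Genes are not independent replicates. The FPKM values of that library summed to 780952, against 554359 at 0 h and 627094 at 8 h in the same line.

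ATF3 is a stress-induced transcription factor of the ATF/CREB family that lies downstream of ATF4. In H460-vec cells its levels at 0, 8 and 16 h were 1.52, 1.69 and 4.13 FPKM. Cells with wild-type RUNX3 had 2.95, 46.2 and 235 FPKM. K94/171R cells had 2.41, 1.85 and 1.37 FPKM. Both later libraries of the wild-type line were thus far above the other 7. In bulk RNA, more cells that express a gene and more RNA per cell cannot be told apart. Against 0 h, the log2 change with wild-type RUNX3 was 3.94 at 8 h and 6.29 at 16 h. It was the 45th highest of 11555 genes at 8 h and the 77th of 11930 at 16 h. In H460-vec cells the log2 changes were 0.15 and 1.41, and in K94/171R cells −0.37 and −0.79. The ATF3 gene lies at chr1:212738676-212794119 on hg19, plus strand, and a small RNA pseudogene, RN7SL512P, is annotated within it on the opposite strand.

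SESN2 encodes sestrin 2, a leucine-binding inhibitor of mTORC1 signaling and a target of both ATF4 and p53. Levels at 0, 8 and 16 h were 2.75, 4.11 and 6.01 FPKM in H460-vec cells. The wild-type line had 2.61, 22.4 and 46.1 FPKM. K94/171R cells had 9.45, 7.16 and 11.3 FPKM. Starved cells of the first pair of lines had nearly equal levels, and those lines were apart at 8 h and 16 h. The log2 changes with wild-type RUNX3 were 3.08 at 8 h and 4.12 at 16 h, against 0.57 and 1.11 in H460-vec cells and −0.40 and 0.26 in K94/171R cells. SESN2 lies at chr1:28586029-28609002 on hg19.

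CTH, cystathionine gamma-lyase, makes cysteine from cystathionine in the transsulfuration pathway. Its levels at 0, 8 and 16 h were 7.03, 4.66 and 8.53 FPKM in H460-vec cells. H460-ERT2-RUNX3 cells had 8.30, 26.7 and 107 FPKM. K94/171R cells had 13.8, 10.2 and 15.6 FPKM. The control and mutant lines both had their lowest level at 8 h, when the wild-type line was already above its 0 h level. The log2 changes with wild-type RUNX3 were 1.68 at 8 h and 3.68 at 16 h. In H460-vec cells they were −0.59 and 0.28, and in K94/171R cells −0.43 and 0.17. CTH lies at chr1:70876901-70905534 on hg19.

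PHGDH catalyses the first step of serine synthesis from a glycolytic intermediate and did not follow the other 3. Its level was 68.7, 75.3 and 90.8 FPKM at 0, 8 and 16 h in H460-vec cells and 63.2, 110 and 58.2 FPKM in H460-ERT2-RUNX3 cells. K94/171R cells had 69.2, 60.1 and 58.7 FPKM. The wild-type line was highest at 8 h and back near its 0 h level at 16 h, with log2 changes of 0.80 and −0.12 (−0.61 with equal FPKM sums) against 0 h and of −0.92 from 8 h to 16 h. H460-vec cells had 0.13 and 0.40 against 0 h. The annotated gene spans chr1:120191034-120286841 on hg19, and the locus in the table of the 2 lines starts further in, at 120254419.

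**Figure D1:**
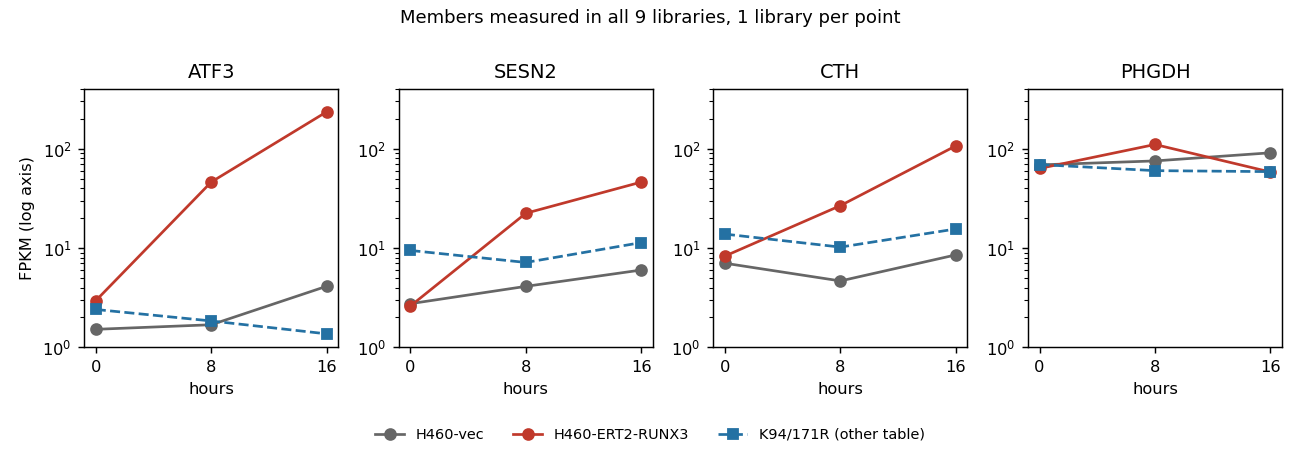
FPKM on a log axis against hours for ATF3, SESN2, CTH and PHGDH in H460-vec, H460-ERT2-RUNX3 and K94/171R cells, 1 library per point and no error bars, with the K94/171R values from a separately made table. ATF3 in H460-ERT2-RUNX3 cells goes from 2.95 to 235, while the lines for PHGDH stay between 58.2 and 110.

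Set against H460-vec at the same time, starved H460-ERT2-RUNX3 cells had a higher ATF3 level and differed little in the other 3 members. The log2 ratios at 0 h were 0.94 for ATF3, −0.08 for SESN2 (0.02 when the libraries were rescaled to the same FPKM sum), 0.24 for CTH and −0.12 for PHGDH. At 8 h they were 4.73 for ATF3, 2.43 for SESN2, 2.51 for CTH and 0.55 for PHGDH, and at 16 h 5.82, 2.93, 3.64 and −0.64 in that order. With a pseudocount of 1 the ratio of ATF3 at 8 h was 4.13.

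Members were counted at a log2 change of at least 2 in either direction, the fold threshold of the study. The study also set limits on FDR and p, which were not applied here. At 8 h with wild-type RUNX3, 2 of the 4 members passed (ATF3 and SESN2). Of all genes with at least 1 FPKM in 1 of the libraries compared, 1.63% did. At 16 h 3 of 4 passed (with CTH), where 14.5% of genes did, and between 8 h and 16 h 1 of 4 (ATF3), where 7.83% did. All these passes were increases. CTH missed the last count at 1.996 and passed it when the libraries were rescaled by their median ratio. In H460-vec cells 0 of 4 passed in any of the 3 comparisons, with 0.600% of genes passing at 8 h, 0.725% at 16 h and 0.528% between these times. At a log2 change of at least 1, 3 of 4 members passed with wild-type RUNX3 at 8 h beside 8.20% of genes, 3 of 4 at 16 h beside 41.5%, and 3 of 4 between 8 h and 16 h beside 29.3%. With equal FPKM sums the last count was also 3, but without SESN2 (0.72) and with PHGDH, which was lower (−1.24). In H460-vec cells 0 of 4 did at 8 h beside 2.02% of genes, 2 of 4 (ATF3 and SESN2) at 16 h beside 3.17%, and 1 of 4 (ATF3) between these times beside 2.22%. With a pseudocount of 1 the last 2 counts were 1 of 4, SESN2 being at 0.90, and 0 of 4, ATF3 being at 0.93. The comparisons within a line share libraries and are not independent, and with 4 genes chosen with results known the shares describe these libraries only. The 16 h counts rest on the library that stood apart, and its part in them was not tested. The 8 h values do not use it.

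**Figure D2:**
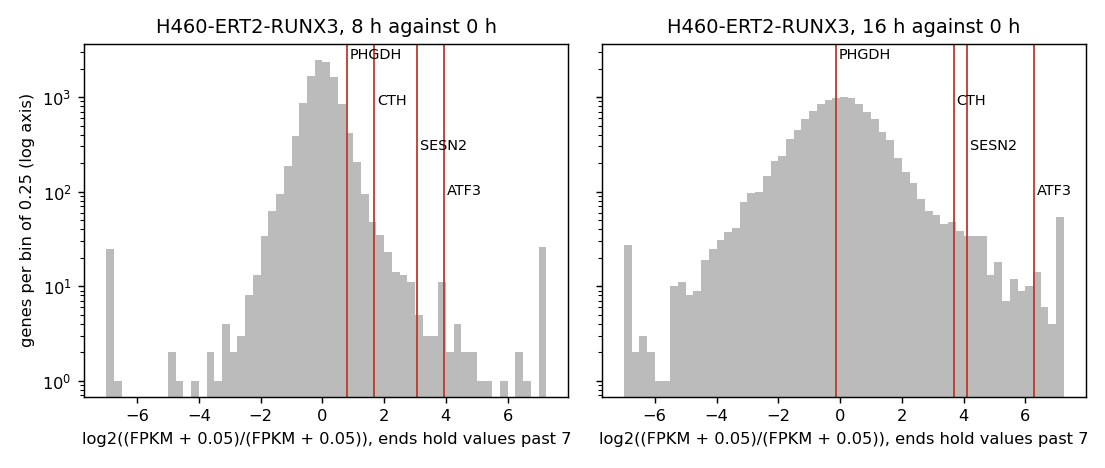
Number of genes, on a log axis, by log2 change against 0 h at 8 h and 16 h with wild-type RUNX3, for genes with at least 1 FPKM in 1 of the libraries compared, with red lines at the 4 members and the end bins holding values past 7. The distribution is much wider at 16 h than at 8 h, and ATF3 lies at 3.94 and 6.29 while PHGDH lies at 0.80 and −0.12.

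To find genes with like patterns, the mean profile of ATF3, SESN2 and CTH was taken over the 6 libraries of the control and wild-type lines. It was compared with 606 genes that had a symbol and at least 1 FPKM in 1 library, nearly all of chromosome 1. The profile was built from members that moved together in H460-ERT2-RUNX3 cells, without PHGDH. Nearness to it therefore describes a shared rise in that line and supports nothing further. The root mean square difference of centred log2 levels was smallest for CTH (0.49) and SESN2 (0.49), which are part of the profile, so that their nearness is built in. ATF3, also part of it, ranked 8 at 0.80. GADD45A, a stress gene acting in growth arrest, came next at 0.56, followed by the interferon-inducible IFI16 at 0.72 and the complement regulator CD55 at 0.77. GADD45A had 9.66, 10.2 and 10.7 FPKM in H460-vec cells at 0, 8 and 16 h and 15.9, 80.1 and 131 FPKM in H460-ERT2-RUNX3 cells. CD55 in the latter cells went from 78.2 and 156 FPKM to 1805 at 16 h. Without the library that stood apart, SESN2, GADD45A, CTH, ATF3 and LMO4 were nearest, so that of the genes outside the profile GADD45A was named both times and IFI16 and CD55 were not.

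In K94/171R cells all 10 members could be followed, and each had at least 1 FPKM in 1 of the libraries of every comparison. ATF4 mRNA was abundant, with 324, 301 and 227 FPKM at 0, 8 and 16 h and log2 changes of −0.11 and −0.51. It was highest in the starved cells and lowest at 16 h. ATF4 lies at chr22:39915700-39918688 on hg19, and 4 pseudogenes of it are annotated that could share its reads.

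DDIT3, which encodes the pro-apoptotic factor CHOP, had 19.0, 20.2 and 14.6 FPKM at 0, 8 and 16 h, with log2 changes of 0.09 and −0.38. The library kit keeps the strand, but whether counting used it was not given in the sources used here. DDIT3 (chr12:57910371-57915520 on hg19) overlaps MARS1 and MBD6 on the opposite strand, and another gene annotated as protein-coding and MIR616 on its own, so its level is uncertain. TRIB3, a pseudokinase that restrains ATF4 in feedback, had 30.0, 25.7 and 22.8 FPKM. Its log2 changes were −0.22 and −0.39. Both were lowest at 16 h, as ATF3 was in these cells.

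Among the enzymes, ASNS, which makes asparagine and lies at chr7:97480989-97501854 on hg19, had 46.2, 35.0 and 37.8 FPKM and log2 changes of −0.40 and −0.29. PSAT1, which follows PHGDH in serine synthesis, had 79.2, 93.6 and 67.0 FPKM and log2 changes of 0.24 and −0.24. The changes of PHGDH were −0.20 and −0.24. Starved cells thus had more ASNS and PHGDH mRNA than cells at either later time, while PSAT1 was highest at 8 h. ASNS and PSAT1 have 5 and 4 annotated pseudogenes, and a long noncoding RNA overlaps ASNS on the same strand, so both levels are uncertain.

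CHAC1, a glutathione-degrading enzyme and a sensitive target of ATF4, had the lowest level of the 10 at 16 h, with 1.72, 1.10 and 0.5004 FPKM at 0, 8 and 16 h. Its log2 changes were −0.62 and −1.69, the latter the 52nd lowest of 11325 genes. At such levels a change may rest on few reads, whose number is unknown, and with a pseudocount of 1 the change at 16 h was −0.86.

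Of the 10 members, 8 were lower and 2 higher than at 0 h at each time, DDIT3 and PSAT1 being higher at 8 h and SESN2 and CTH at 16 h. Of all genes, 50.8% were higher at 8 h and 48.2% at 16 h. The median log2 change of the members was −0.30 at 8 h and −0.33 at 16 h, and that of all genes 0.01 and −0.01. From 8 h to 16 h the members' median was −0.29. At a log2 change of 2, 0 of 10 passed in any comparison, beside 0.613% of genes at 8 h, 0.512% at 16 h and 0.488% between these times. At a log2 change of 1, 0 of 10 passed at 8 h beside 3.76% of genes, 1 of 10 (CHAC1) at 16 h beside 2.74%, and 1 of 10 (CHAC1) from 8 h to 16 h beside 4.19%. With a pseudocount of 1, 0 of 10 passed at either, CHAC1 being at −0.86 and −0.49. Both comparisons with 0 h share the starved library.

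**Figure D3:**
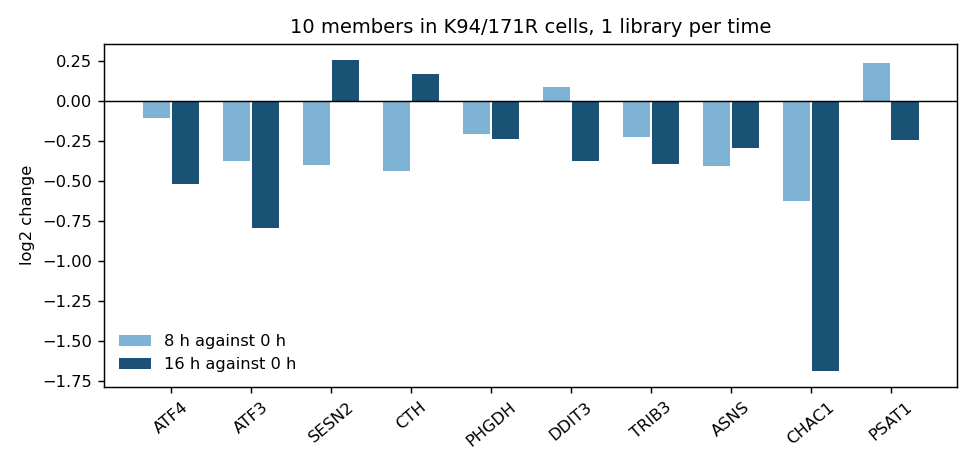
Bars give the log2 change of each of the 10 members in K94/171R cells at 8 h (light) and 16 h (dark) against 0 h, 1 library per time and no error bars. Most bars point down, and the longest is CHAC1 at 16 h, at −1.69.

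Other genes of the pathway were described in K94/171R cells by list, over genes with at least 1 FPKM in 1 of the libraries compared. Of 14 genes for eIF2 kinases and translation control, 10 were higher and 4 lower at 8 h, with a median log2 change of 0.12, and 5 were higher and 9 lower at 16 h, with a median of −0.04 (8 higher and a median of 0.05 when rescaled to the same FPKM sum). EIF2S1, the eIF2 subunit that is phosphorylated, had 38.6, 62.4 and 38.2 FPKM at 0, 8 and 16 h. The heme-sensing kinase EIF2AK1 had 46.9, 35.9 and 39.4 FPKM, and the kinase of the endoplasmic reticulum, EIF2AK3, 7.01, 5.52 and 8.66 FPKM. EIF2B1, a subunit of the eIF2 exchange factor, had 31.3, 33.5 and 24.7 FPKM.

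Of 5 partner transcription factors 4 reached 1 FPKM, and 4 of these were higher at 8 h and 1 at 16 h (2 at the same FPKM sum), with medians of 0.22 and −0.12. ATF5, itself controlled in translation like ATF4, had 9.29, 18.2 and 7.49 FPKM, while JDP2 stayed at 6.72, 6.85 and 6.98 FPKM. The factor NUPR1 stayed below 1 FPKM in all 3 libraries.

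For amino acid synthesis and one-carbon enzymes, 6 of 10 were higher at 8 h (5 of 10 when rescaled by the median ratio, 7 of 10 at the same FPKM sum) and 8 of 10 at 16 h, with medians of 0.04 and 0.16. PCK2, the mitochondrial enzyme that makes phosphoenolpyruvate, had 15.1, 9.89 and 15.4 FPKM, and PSPH, the last enzyme of serine synthesis, 3.61, 3.11 and 2.64 FPKM. CBS, the enzyme before CTH in transsulfuration, was listed at 0.000979, 1.77 and 1.66 FPKM at these times. A value so near 0 may be a failed estimate, so no fold is given. Without CBS, 5 of 9 were higher at 8 h, with a median of 0.01 (4 of 9 and just below 0 by the median ratio), and 7 of 9 at 16 h, with a median of 0.15.

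Of the amino acid transporters, 5 of 8 were higher at 8 h, with a median of 0.18. At 16 h 8 of 8 were lower, with a median of −0.42. All 8 were also lower at 16 h under either rescaling. The median was then −0.32 at the same FPKM sum and −0.40 by the median ratio. SLC7A5, which imports large neutral amino acids, had 40.6, 74.2 and 34.7 FPKM. The glycine transporter SLC6A9 had 2.82, 1.63 and 1.40 FPKM, and the glutamine transporter SLC38A2 had 195, 120 and 181 FPKM.

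Cytosolic tRNA synthetases, which charge tRNAs with amino acids, were higher at 8 h in 18 of 20 genes (17 by the median ratio), with a median log2 change of 0.27. At 16 h 7 of 20 were higher and the median was −0.04 (12 of 20 and 0.06 at the same FPKM sum). FARSA had 33.9, 59.2 and 29.3 FPKM, TARS 75.1, 88.8 and 53.4, VARS 30.8, 38.3 and 40.2 and QARS 62.4, 47.7 and 53.2. Mitochondrial synthetases were higher in 12 of 17 genes at 8 h (14 at the same FPKM sum), with a median of 0.10, and in 7 of 17 at 16 h, with a median of −0.04 (10 of 17 and 0.05 at the same FPKM sum). In this list LARS2 had 6.84, 10.8 and 8.14 FPKM, VARS2 13.02, 10.3 and 12.02, AARS2 4.01, 5.67 and 6.06 and PARS2 2.13, 2.30 and 1.33. The small shifts of both lists at 16 h therefore have no settled direction.

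Of the other stress targets, 13 of 15 reached 1 FPKM, and 7 were higher at 8 h (6 by the median ratio) and 6 at 16 h (8 at the same FPKM sum). The median was 0.01 at 8 h, turning to just below 0 by the median ratio, and −0.04 at 16 h, turning to 0.05 at the same FPKM sum. STC2, a secreted glycoprotein, had 22.5, 51.3 and 24.2 FPKM, and KLHL24 had 3.16, 1.07 and 2.05 FPKM. GDF15, a secreted stress cytokine that p53 also controls, had 63.8, 87.6 and 192 FPKM, a log2 change of 1.59 at 16 h. FGF21 was listed at 0 in all 3 libraries.

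Genes of the unfolded protein response of the endoplasmic reticulum, a neighbouring pathway, had medians near 0. At 8 h 7 of 15 were higher, with a median of −0.01 (8 of 15 and 0.03 at the same FPKM sum, 6 of 15 by the median ratio), and at 16 h 13 of 15, with a median of 0.10. The stress sensor ERN1 had 2.17, 2.83 and 2.33 FPKM, DNAJB9 7.53, 5.60 and 5.28 and the chaperone cofactor SDF2L1 46.6, 57.7 and 70.5. The 7 p53 target genes taken for comparison were lower at 8 h in 7 of 7 and higher at 16 h in 6 of 7, with medians of −0.57 and 0.44. CDKN1A, the inhibitor p21, had 146, 68.5 and 247 FPKM, BTG2 16.0, 9.49 and 34.1 and SFN 93.7, 90.9 and 57.0.

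**Figure D4:**
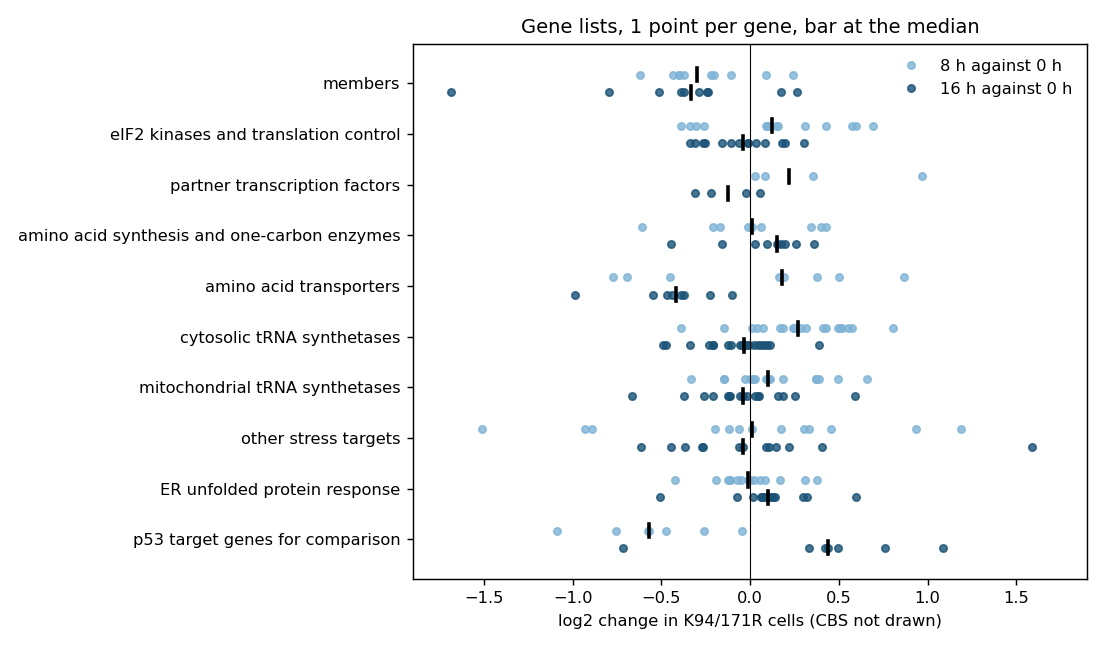
Each point is the log2 change of 1 gene with at least 1 FPKM in K94/171R cells at 8 h (light) or 16 h (dark) against 0 h, by list, with a bar at the median and CBS left out. At 8 h the median is −0.30 for the members, 0.27 for the cytosolic tRNA synthetases and −0.57 for the p53 target genes.

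In the control and wild-type lines few list genes could be named. SARS, the cytosolic seryl-tRNA synthetase, had 70.9, 74.3 and 96.1 FPKM in H460-vec cells at 0, 8 and 16 h and 78.7, 178 and 242 FPKM in H460-ERT2-RUNX3 cells. Its log2 changes in the latter were 1.18 and 1.62 (1.12 with equal FPKM sums). The mitochondrial synthetases IARS2 and TARS2 were lower at 16 h than at 0 h in those cells. IARS2 had 189, 111 and 90.9 FPKM and TARS2 had 22.6, 21.0 and 11.7 FPKM. In H460-vec cells IARS2 had 187, 151 and 168 FPKM and TARS2 had 21.7, 19.5 and 22.9. Their log2 changes at 16 h were −1.06 and −0.94 with wild-type RUNX3. The median of the 3 mitochondrial synthetases with a symbol there was −1.06, and −1.55 with equal FPKM sums. SARS was the only cytosolic synthetase with a symbol there. The 16 h values rest on the library that stood apart, where 41.5% of genes passed a log2 change of 1. In K94/171R cells SARS had 57.4, 51.7 and 57.2 FPKM, IARS2 157, 154 and 160 and TARS2 21.2, 21.4 and 24.1.

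**Figure D5:**
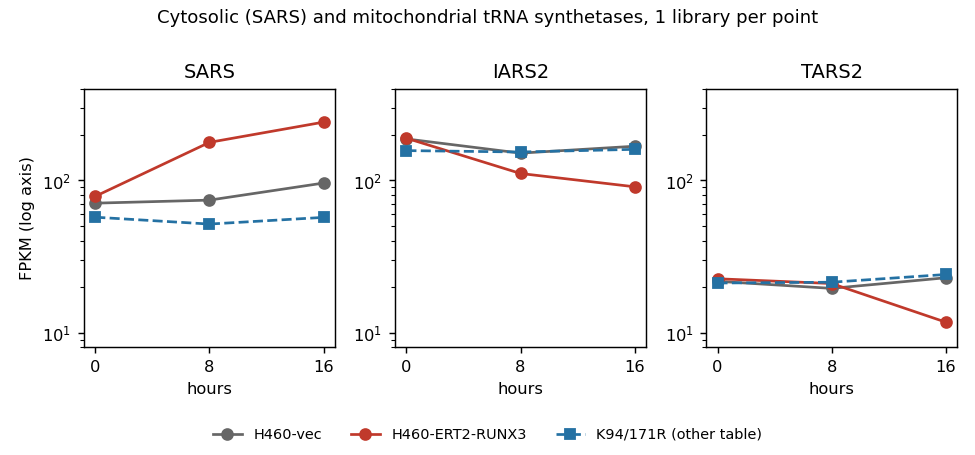
FPKM on a log axis against hours for the cytosolic synthetase SARS and the mitochondrial synthetases IARS2 and TARS2 in the 3 lines, 1 library per point, with K94/171R values from a separately made table. In H460-ERT2-RUNX3 cells SARS goes from 78.7 to 242 while IARS2 goes from 189 to 90.9. The 16 h points of that line come from the library that stood apart.

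ATF6, a sensor of unfolded protein, had 21.9, 20.8 and 23.1 FPKM in H460-vec cells and 21.8, 28.0 and 35.6 FPKM in H460-ERT2-RUNX3 cells, a log2 change of 0.70 at 16 h (0.21 with equal FPKM sums). Among p53 targets, GADD45A had log2 changes of 2.33 and 3.04 in H460-ERT2-RUNX3 cells. BTG2 had 5.07, 5.15 and 18.2 FPKM there, PLK3 had 2.01, 6.50 and 7.95 FPKM and SFN had 51.9, 97.6 and 113 FPKM. In H460-vec cells BTG2 had 4.19, 5.64 and 4.93 FPKM, PLK3 had 1.74, 3.32 and 2.81 and SFN had 55.6, 88.6 and 58.5. GADD45A, BTG2, PLK3 and SFN were thus higher with wild-type RUNX3 than in H460-vec cells at 16 h, in the library that stood apart. At 8 h the log2 ratios to H460-vec were 2.96 for GADD45A, −0.13 for BTG2, 0.96 for PLK3 and 0.14 for SFN. At 0 h they were 0.72, 0.27, 0.20 and −0.10 in that order. In K94/171R cells, from the other table, GADD45A had 22.9, 16.4 and 28.7 FPKM and PLK3 had 5.82, 4.85 and 7.79 FPKM. At 16 h the listed level of PLK3 in the mutant line was close to that in the wild-type line, and that of BTG2 was above it. The part of p53 and of ATF4 in the levels of ATF3 and SESN2 was not tested.

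The labelled cell type was checked in K94/171R cells. The keratins KRT8, KRT18 and KRT19 were abundant, with KRT8 at 662, 698 and 569 FPKM, but the epithelial markers EPCAM and CDH1 were at or near 0. The 5 epithelial markers summed to 1637, 1561 and 1274 FPKM. The 4 lung alveolar and club markers summed to at most 0.143 FPKM. Of 4 leukocyte markers CD14 led at 5.44, 3.16 and 5.62 FPKM, with CD3E listed at 0, and of 4 fibroblast markers COL3A1 led at 6.17, 5.60 and 8.26 FPKM. Neuroendocrine CHGA had 8.62, 9.13 and 6.96 FPKM, and the 2 endothelial markers found summed to at most 0.0284 FPKM. RUNX3 had 2.12, 0.712 and 2.11 FPKM and ESR1 3.22, 2.04 and 3.61 FPKM. Reads of the fusion and of the genes of the cell cannot be told apart, so these levels do not check the labels, and RUNX3 was not analysed here in the other lines.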

How the data were processed

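The data are 9 RNA-seq libraries of H460-vec, H460-ERT2-RUNX3 and K94/171R cells at 0, 8 and 16 h. The authors trimmed reads with Cutadapt and mapped them to hg19 with STAR, and the submitters' processing notes name STAR 2.5.0, Cufflinks and Cuffdiff 2.2.1. The gene annotation and the use of strand in counting were not given in the sources used here. The libraries were made with a stranded mRNA kit. What the authors deposited is gene-level FPKM, as 2 separately normalized tables, 1 of them for the K94/171R line alone.

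Identifiers of the K94/171R table were matched to symbols by Ensembl gene, for 19494 of 19869 genes. Those of the other table were named from the identifier columns of a supplementary table, held in part, for 1145 of 24331. Gene positions on hg19 are from GENCODE v44 lifted to GRCh37. Changes are log2 ratios with a pseudocount of 0.05, and shares are over genes with at least 1 FPKM in 1 of the libraries compared. With 1 library per condition no test was run. Members and lists were chosen with earlier results of these data known.

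The genes named are the 10 members, the largest rise and fall of each list at 8 h and 16 h in K94/171R cells among genes of at least 1 FPKM, list genes with a symbol in the other table, and the 5 nearest in profile. Some genes that the rule names are not reported here. NUPR1, FGF21, RN7SL512P, MARS1, MBD6, MIR616, LMO4 and markers are named beside them, NUPR1, FGF21 and LMO4 after their values were seen. The lists cover eIF2 kinases and translation control, partner transcription factors, amino acid synthesis and one-carbon enzymes, amino acid transporters, cytosolic and mitochondrial tRNA synthetases, other stress targets, the unfolded protein response and p53 targets.

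FPKM gives no read counts. Among genes below 0.5 FPKM in both libraries compared, the most frequent log2 ratio, which is set by what 1 read is worth, gave relative depths of 1.17 and 0.966 for H460-vec at 8 h and 16 h and 1.10, 0.993 and 1.01 for H460-ERT2-RUNX3 at 0, 8 and 16 h, with H460-vec at 0 h as 1. The last rests on 53 of 1919 low genes. In K94/171R cells the ratios were 0.993 and 0.986, on 32 and 42 genes, and are less certain. Absolute depth is unknown. Calculations used Python 3.11.15, numpy 2.4.6, pandas 2.3.3 and matplotlib 3.10.9, and the calculation of changes was tested on simulated data. Alternatives were a pseudocount of 1, libraries of a table rescaled to the same FPKM sum or by the median ratio over genes of at least 1 FPKM in all of them, a threshold of 1 and other limits on low values. Promoter letters were searched in the RefSeq windows of all 10 members. Windows at starts of another annotation were also looked at after those matches were seen, and are not used here.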

Additional observations from a re-analysis of the deposited data

Results flagged for a closer look

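For a pair of members the log2 changes in the lines with wild-type and mutant RUNX3 had opposite signs, with at least 1 of them past 2. The log2 change of ATF3 at 8 h was 3.94 with wild-type RUNX3 and −0.37 in K94/171R cells, and at 16 h these were 6.29 and −0.79. That of SESN2 at 8 h was 3.08 with wild-type RUNX3 and −0.40 in K94/171R cells. Each value compares 1 library with 1 other, the lines are in separately made tables, and the differences between the lines were not tested.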

How the results depend on the processing

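Of 54 log2 changes of members, 54 moved by less than 1.5-fold under either rescaling of the libraries and 53 with a pseudocount of 1, the exception being CHAC1 at 16 h in K94/171R cells, at −0.86. The direction of 1 member turned, PHGDH from 8 h to 16 h in K94/171R cells, from −0.03 to 0.02 with libraries of equal FPKM sum. That rescaling moved the median of all genes in H460-ERT2-RUNX3 cells to −0.18 at 8 h, −0.49 at 16 h and −0.32 between these times, and in H460-vec cells to −0.11 between 8 h and 16 h. The counts of members past a log2 change of 2 held under a pseudocount of 1 and equal sums. By the median ratio, 2 members passed between 8 h and 16 h in H460-ERT2-RUNX3 cells instead of 1, since CTH lay at the threshold. At a threshold of 1 the counts were 3 for that comparison, 2 for H460-vec at 16 h and 1 between 8 h and 16 h, and 1 for K94/171R cells at 16 h and 1 between 8 h and 16 h. These held less well, as examined after seeing the data. With a pseudocount of 1 they were 1 and 0 for H460-vec, where SESN2 (0.90) and ATF3 (0.93) were below 1, and 0 for both in K94/171R cells, where CHAC1 was (−0.86 and −0.49). With equal sums SESN2 between 8 h and 16 h in H460-ERT2-RUNX3 cells was below 1 (0.72) and PHGDH passed as a decrease (−1.24). The ratio of ATF3 between H460-ERT2-RUNX3 and H460-vec at 8 h was 4.13 with a pseudocount of 1, which weighs on its low control value. The causes of the other shifts were not tested. The ratio of SESN2 at 0 h turned from −0.08 to 0.02 with equal sums.

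The share of genes past a log2 change of 1 in K94/171R cells at 8 h was 7.31% without a limit on low values and 2.04% at 5 FPKM or more, and at 16 h 6.47% and 1.40%. Leaving out CBS, or the H460-ERT2-RUNX3 library at 16 h from the profile, was chosen after seeing the data. No paired analysis was possible by replicate, because the sample titles carry no replicate numbers and no result comes from a test. H460-ERT2-RUNX3 and H460-vec cells were compared by ratios at each of 3 times, and no fit with time as a block was made. Without read counts, the counting error of low genes such as CHAC1 and ATF3 in control cells is unknown.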
